A study of Mus musculus with 12 samples.

Results

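The cadherin superfamily genes of mouse islets were followed in RNA from Tg7 mice, which carry a transgene that overexpresses miR-7a2 in β-cells, and from Wt littermates. Members were the genes whose symbol marks them as a numbered cadherin (Cdh), a protocadherin (Pcdh), Celsr1 to Celsr3 or Fat1 to Fat4, with a total of at least 50 reads over the 12 libraries. Of 68 such genes among the 37991 in the count table, 55 reached this minimum, and 54 of them also passed the expression filter of the test (Pcdhb8 did not). The lowest member was Cdh6 with 54 reads in all, and the highest gene left out was Cdh17 with 42. The 4 groups were male Wt and Tg7 islets on a C57BL/6 background, taken at 2w and at 12w of age, with 3 libraries in each. By the study's account, Tg7 mice are normoglycaemic at 2w and hyperglycaemic at 12w, and each library was made from pooled islets of at least 3 animals. Whole islets were used, so that endothelial, stromal and nerve-associated cells contribute RNA beside the endocrine cells, and the p values measure the spread between these pools. In such bulk RNA, fewer cells of a type and less RNA per cell cannot be told apart.

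Cadherins are transmembrane proteins that bind their like on neighbouring cells in the presence of calcium. Classical cadherins (type I, such as E-cadherin and N-cadherin, and type II, such as VE-cadherin) hold on to the actin cytoskeleton through catenins at adherens junctions, and in islets E-cadherin and N-cadherin join endocrine cells to each other. Clustered protocadherins give neurons a surface identity, non-clustered protocadherins act mostly in neural and sensory tissue, and the very large Celsr and Fat proteins orient cells within an epithelium. The 55 members comprised 3 type I, 9 type II and 3 atypical cadherins, 24 clustered and 10 non-clustered protocadherins, and 6 planar polarity or giant cadherins. In mouse, 27 of them lie on chromosome 18.

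The libraries held 11610697 to 17515758 reads on genes, and the members together took between 0.0800% and 0.180% of them. The insulin genes Ins1 and Ins2 took 27.0% and 29.99% of the reads in 2 of the 12w Wt libraries but 14.8% in the one numbered 4, between 1.84% and 4.09% in 2w Tg7 and between 8.08% and 8.24% in 12w Tg7. That 12w Wt library also stood apart in the members' share, with 0.147% against 0.0800% and 0.103% in its group. All 8 β-cell markers tested had lower estimates in Tg7 islets at both ages. At the threshold given below, 7 passed as lower at 2w and 6 at 12w, beside 4.55% and 11.2% of all genes. Values below are TMM-scaled CPM, which is reads relative to the library's effective total. Differences are log2 fold changes with their standard error (SE) from edgeR's quasi-likelihood test, and a gene was called at a Benjamini-Hochberg adjusted p below 0.05 over the 15961 genes tested.

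Cdh1, which encodes E-cadherin, had the highest length-scaled level of all members in Wt islets at both ages. It stood at 82.8 ± 2.69 CPM per kb of exon at 2w and 103 ± 23.5 at 12w (SD, n = 3), which was 36.9% and 49.5% of the sum over all members. At 2w it was followed by Cdh5, the VE-cadherin of endothelial cells, with 42.3 ± 8.18 CPM per kb, and then by Cdh2, the N-cadherin gene, with 16.3 ± 0.32. Celsr3, with 15.2 ± 2.42 CPM per kb, and Pcdh1, with 15.1 ± 1.18, did not differ from each other or from Cdh2 beyond their spread. At 12w the order was Cdh1, Cdh2 (17.96 ± 7.91 CPM per kb), Cdh5 (13.6 ± 2.76), Cdh16 (11.7 ± 5.39) and Pcdh1 (10.95 ± 2.08), and neighbouring levels from Cdh2 down overlapped. Cdh16 encodes a cadherin known from kidney. At the other end, 20 members at 2w and 22 at 12w averaged below 1 CPM.

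**Figure D1:**
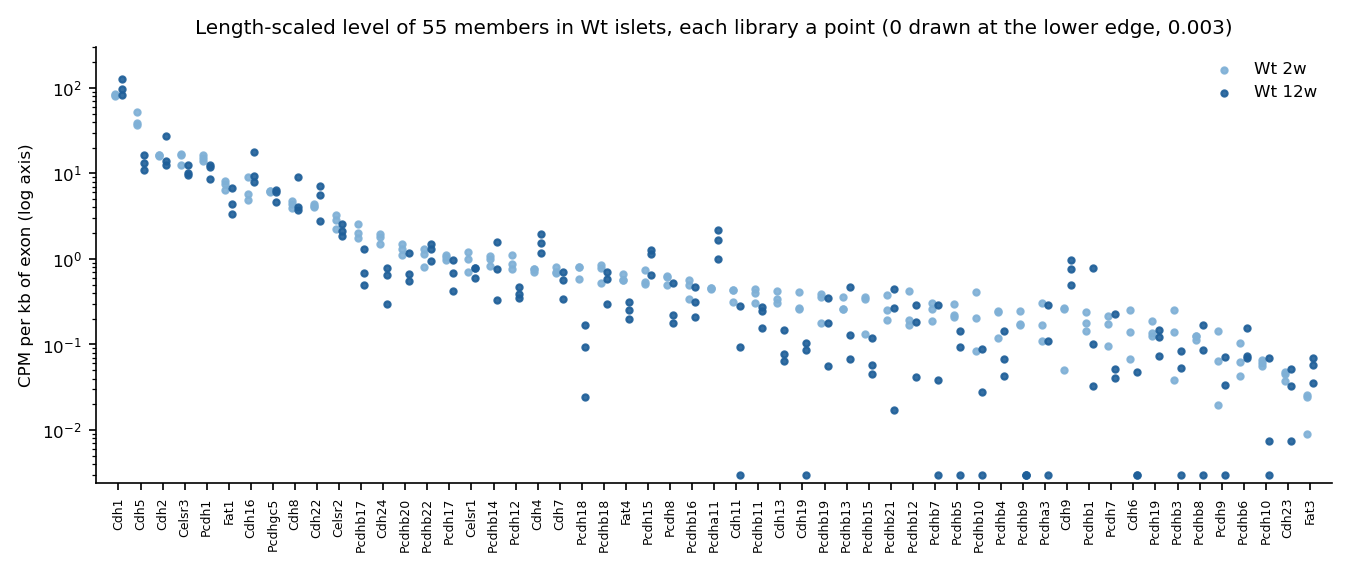
Length-scaled level of the 55 members in Wt islets, in CPM per kb of exon on a log axis, with each point a library, light blue at 2w and dark blue at 12w, and genes ordered by their 2w mean. Cdh1 stands at the top at both ages, at 82.8 CPM per kb at 2w and 103 at 12w on average, and the points of Cdh5 at 12w lie below those at 2w.

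The comparison of Tg7 with Wt islets asked how the cadherin family stood when β-cells overexpressed miR-7, before and after hyperglycaemia. At 2w 5 of 54 members were called (9.26%), against 10.6% of all genes tested. Fat3, Cdh9 and Pcdha11 rose, beside 6.07% of all genes that rose, and Celsr1 and Cdh8 fell, beside 4.55% of all genes. At 12w 11 members were called (20.4%), against 23.6% of all genes. Here Fat3, Pcdh9, Cdh19, Cdh13, Cdh5, Pcdhgc5 and Pcdhb9 rose, beside 12.5% of all genes, and Celsr1, Cdh7, Pcdh15 and Cdh8 fell, beside 11.2%. Fat3, Celsr1 and Cdh8 were called at both ages in the same direction, while 41 of 54 members were called at neither. Of all 15961 genes tested, 1084 were called at both ages in the same direction and 11591 at neither. The median log2 fold change of the 54 members was 0.09 at 2w and 0.39 at 12w, beside 0.03 and −0.01 over all genes. With TMM and the filter and fit used throughout, the members' called share was close to that of all genes at each age. At 12w this changed with the filter, the model and the scaling. The share was 36.7% of 30 members under a stricter filter, beside 27.7% of all genes, and 23.6% without a filter, beside 14.9%. It was 27.8% with a replicate block, beside 22.4%, and 22% with edgeR on that age alone, beside 17.6%. Without the 12w Wt library numbered 1 it was lower, at 18.2% beside 22.6%. Scaling by library size alone moved the median of all genes by 0.17 at 2w and 0.44 at 12w, and at 12w it called 25 members (46.3%, beside 34.8% of all genes), 21 higher and 4 lower, against 7 higher and 4 lower with TMM. At 2w it called 4 higher and 1 lower, against 3 and 2. Upper-quartile factors gave 18 members at 12w (33.3%, beside 23.4% of all genes), 14 higher and 4 lower. Leaving out the 12w Wt library numbered 4 gave 16 members at 12w (29.1%, beside 23.8%) and 8 at 2w (14.5%, beside 18.7%).

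**Figure D2:**
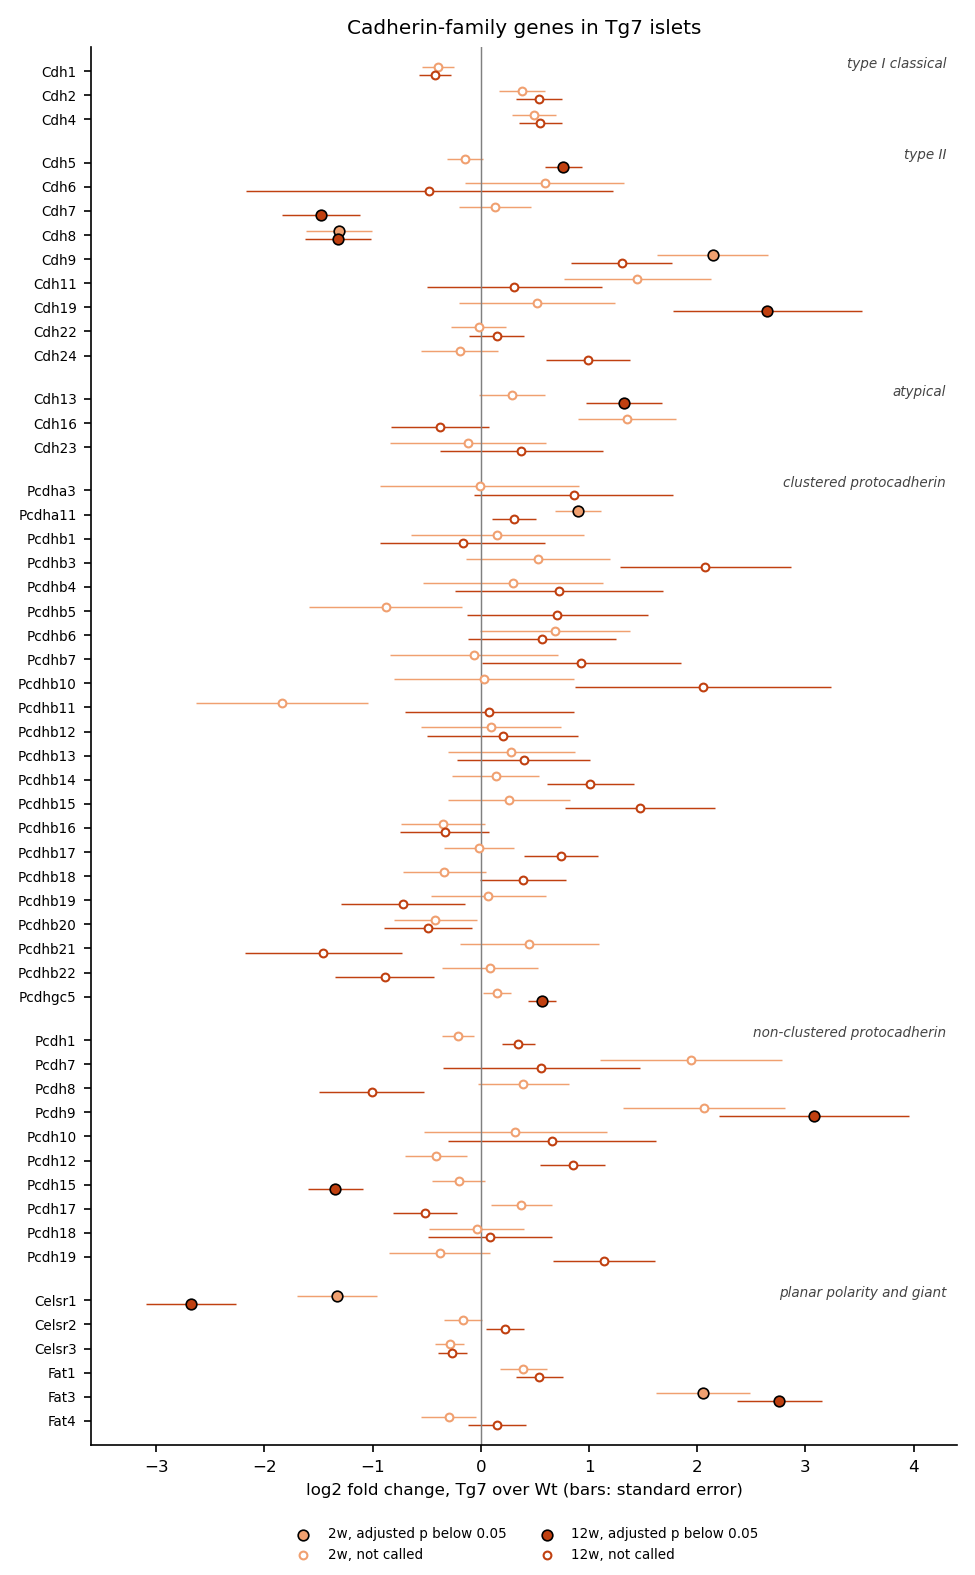
Log2 fold change of Tg7 over Wt islets for 53 tested members by subfamily, with light points for 2w and dark points for 12w and bars of 1 standard error; filled points with a black edge had an adjusted p below 0.05. Pcdhb9, which had no read in 12w Wt islets, is left out; Fat3 lies to the right and Celsr1 and Cdh8 to the left of 0 with filled points at both ages.

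Because Tg7 islets carry extra miR-7, the annotated 3′ UTRs of the members were searched for a match to its seed. The mature miR-7a-5p of RefSeq is printed with bases 2 to 8, the seed, in capitals, and the match searched on the transcript strand is GTCTTCC.
miR-7a-5p: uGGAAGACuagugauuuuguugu
The stretches around the matches are shown for 4 members (mm9, transcript strand, match in capitals), since they include Celsr1 and Pcdh15, which fell, and Cdh5, which rose.
Celsr1 (chr15:85730138-85730159, minus strand): agcccagagGTCTTCCacgctg
Pcdh15 (chr10:74111809-74111830, plus strand): cctctgtggGTCTTCCaaacag
Cdh5 first match (chr8:106666952-106666973, plus strand): ccggacactGTCTTCCctgatt
Cdh5 second match (chr8:106667241-106667262, plus strand): gaacttttaGTCTTCCccaagg
Cdh4 (chr2:179632066-179632087, plus strand): ttgcaccgaGTCTTCCtggctt
Of 49 tested members with an annotated 3′ UTR, 6 held the match (12.2%), against 2074 of 14406 genes (14.4%). The other members with a match were Pcdhgc5 and Pcdh1. At 2w Celsr1 alone of the 6 was called (16.7%, beside 13% of all genes with a match). At 12w Celsr1 and Pcdh15 fell, Cdh5 and Pcdhgc5 rose, and Cdh4 and Pcdh1 were not called. That was 66.7% of the 6, beside 29.5% of all genes with a match, and the difference was not tested. Over all genes with a match the median log2 fold change was −0.04 at 2w and −0.09 at 12w, beside 0.04 and −0.01 without one. Fat3, Cdh8, Cdh7 and Cdh9 had no match in the annotated 3′ UTR. A match is a stretch of letters and no evidence of binding.

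Among type I cadherins, Cdh1 (chr8:109127251-109194146) had lower and Cdh2 (chr18:16747386-16967755) higher values in Tg7 islets at both ages, but neither passed the test. Cdh1 stood at 391, 378 and 367 CPM in 2w Wt and at 317, 281 and 267 in 2w Tg7. At 12w it stood at 376, 448 and 587 CPM in Wt and at 356, 338 and 361 in Tg7. At each age every Tg7 library lay below every Wt library. The log2 fold change was −0.39 (SE 0.15) at 2w with an edgeR adjusted p of 0.102, and −0.42 (SE 0.15) at 12w with an adjusted p of 0.0529. With library size alone the 12w value was 0.00, beside a median of 0.43 over all genes on that scale, and without the 12w Wt library numbered 1 it was −0.58 and called. DESeq2 called Cdh1 at 12w (−0.43), and the 2w value was called with edgeR on that age alone (−0.39) and without the 12w Wt library numbered 1 (−0.39) or 4 (−0.40).

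Cdh2 stood at 133, 133 and 129 CPM in 2w Wt and at 171, 168 and 174 in 2w Tg7. In 12w Wt it stood at 102, 114 and 218 CPM, and in 12w Tg7 at 203, 210 and 218. The groups were apart at 2w, and at 12w the Wt library numbered 4 reached the Tg7 range. The log2 fold change was 0.38 (SE 0.21) at 2w with an edgeR adjusted p of 0.269, and 0.54 (SE 0.21) at 12w with an adjusted p of 0.0821. Without that Wt library the fit called Cdh2 at both ages, with 0.37 at 2w and 0.96 at 12w. At 12w Cdh2 was also called under upper-quartile factors (0.65), library size alone (0.94) and no filter (0.54), and at 2w with edgeR on that age alone (0.38).

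The ratio of Cdh1 reads to Cdh2 reads within a library does not depend on the scaling between libraries. It was computed after the values of both genes had been seen and is given as a description without a test. The ratio was 2.94, 2.84 and 2.85 in 2w Wt and 1.85, 1.67 and 1.54 in 2w Tg7. At 12w it was 3.67, 3.93 and 2.69 in Wt and 1.75, 1.61 and 1.65 in Tg7. Every Tg7 library lay below every Wt library at its age, and the mean log2 ratio was lower in Tg7 islets by a factor of 1.71 at 2w and 2.03 at 12w. Leaving out the Wt library numbered 4, whose ratio was the lowest of its group, changed the log2 difference at 12w from −1.02 to −1.19. Cdh4, the R-cadherin gene and the third type I member, had log2 fold changes of 0.49 (SE 0.20) at 2w and 0.55 (SE 0.20) at 12w, with edgeR adjusted p values of 0.138 and 0.0582. At 12w Cdh4 was called by DESeq2 (0.54), under upper-quartile factors (0.65), under library size alone (0.97) and under the stricter filter (0.58), and without the 12w Wt library numbered 4 (0.75) or the 2w Tg7 library numbered 3 (0.57).

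**Figure D3:**
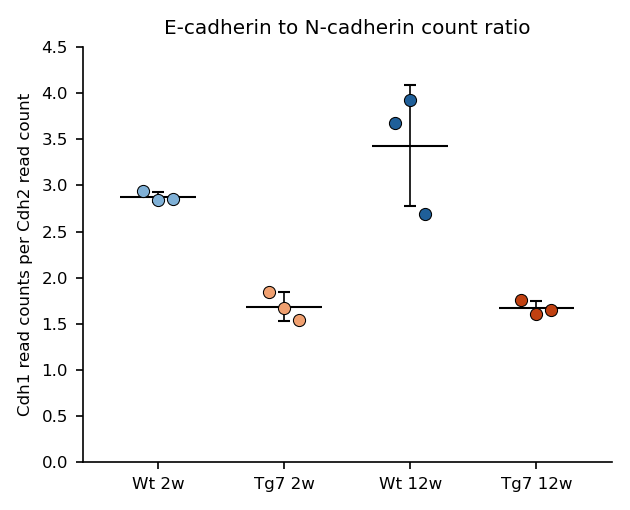
Cdh1 read counts per Cdh2 read count in each of the 12 libraries, with points for libraries, lines for group means and bars for the SD (n = 3). The Tg7 libraries lie between 1.54 and 1.85 at 2w and between 1.61 and 1.75 at 12w, and no Wt library falls below 2.69.

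Celsr1 and Fat3 were the called members among the planar polarity and giant cadherins, and they moved in opposite directions. Celsr1 (chr15:85729188-85864207) encodes an adhesive receptor of the planar polarity pathway. It stood at 13.5, 11.05 and 7.77 CPM in 2w Wt, at 5.55, 4.42 and 2.88 in 2w Tg7, at 8.70, 6.67 and 8.67 in 12w Wt, and at 0.507, 1.16 and 2.06 in 12w Tg7. The groups did not overlap at either age. Celsr1 had a log2 fold change of −1.33 (SE 0.37) at 2w with an edgeR adjusted p of 0.0373, and of −2.68 (SE 0.41) at 12w with an adjusted p of 0.000412. The 12w call held in every alternative and without any 1 library. The 2w call was lost with library size alone (−1.15), and without any 1 of the 2w Wt libraries (−1.14, −1.31 and −1.52), the 2w Tg7 library numbered 2 (−1.36) or 3 (−1.12), or the 12w Tg7 library numbered 2 (−1.33).

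Fat3 (chr9:15714649-16182681) encodes a giant cadherin that shapes neurons of the retina. It stood at 0.178, 0.516 and 0.479 CPM in 2w Wt and at 1.87, 1.23 and 1.79 in 2w Tg7. In 12w Wt it stood at 1.13, 0.714 and 1.40 CPM, and in 12w Tg7 at 6.82, 9.02 and 6.35. The lowest Tg7 library was above the highest Wt library at each age, though the 2w Wt libraries rested on 3, 7 and 9 reads. Fat3 rose by 2.06 (SE 0.43) at 2w with an edgeR adjusted p of 0.00821, and by 2.76 (SE 0.39) at 12w with an adjusted p of 0.000234. Both calls held in every alternative and without any 1 library. Of the relatives, Celsr2, Celsr3, Fat1 and Fat4 had log2 fold changes between −0.30 and 0.39 at 2w and between −0.26 and 0.54 at 12w, and none of these 4 passed the test at either age with TMM and all libraries. At 12w Fat1 was called with library size alone (0.97), with upper-quartile factors (0.65) and without the 12w Wt library numbered 4 (0.87), and Celsr2 with library size alone (0.69).

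**Figure D4:**
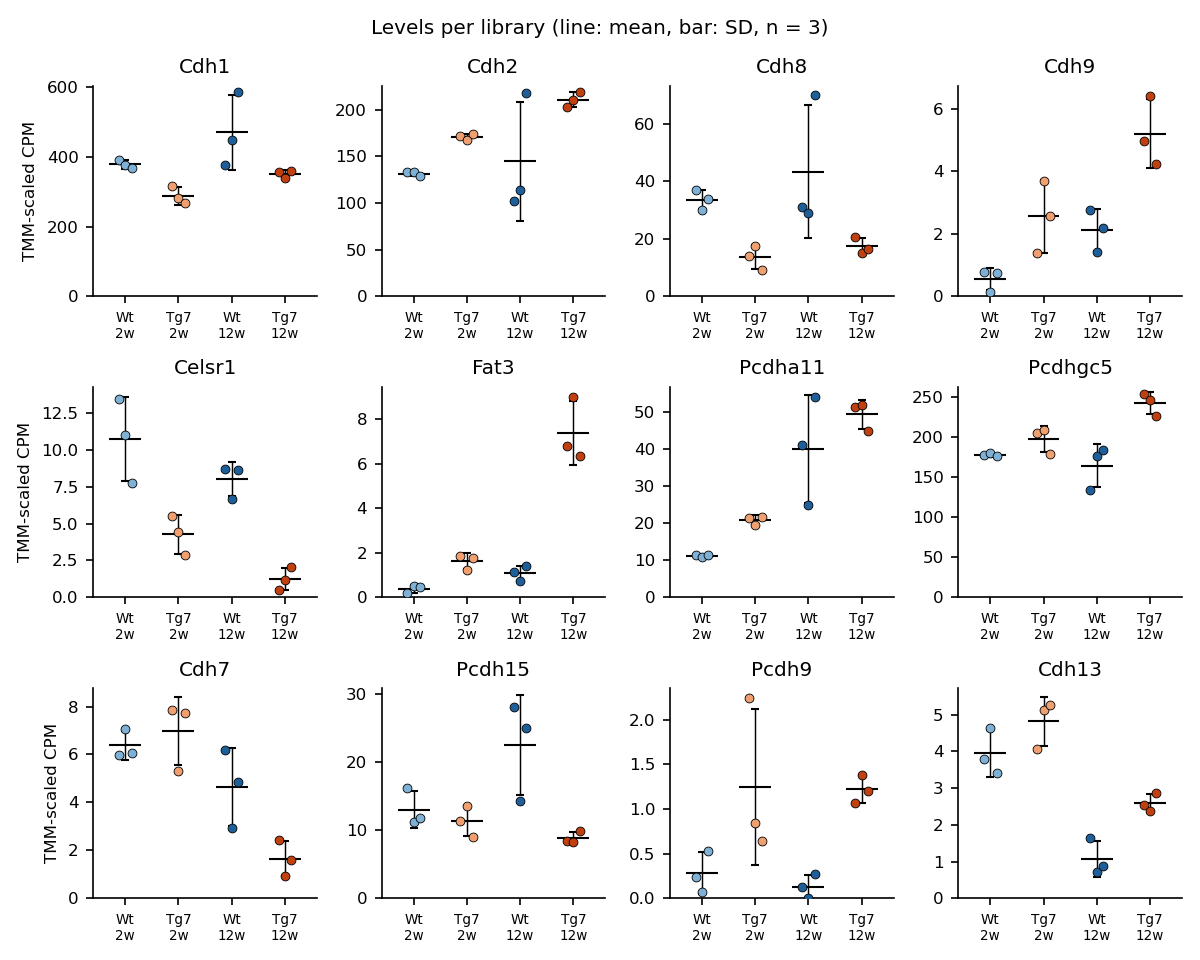
TMM-scaled CPM of Cdh1, Cdh2 and 10 called members in each library, with lines for group means and bars for the SD (n = 3); each panel has its own axis starting at 0. Celsr1 and Cdh8 lie lower and Fat3 higher in Tg7 than in Wt libraries at both ages, while Cdh7 and Pcdh15 separate at 12w.

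The type II cadherins Cdh8, Cdh7 and Cdh9, which are best known from neural tissue, moved in both directions. Cdh8 (chr8:101548371-101940371) stood at 36.8, 30.1 and 33.8 CPM in 2w Wt and at 13.98, 17.6 and 9.24 in 2w Tg7. At 12w it stood at 31.1, 28.9 and 70.002 CPM in Wt and at 20.7, 15.2 and 16.6 in Tg7. The groups were apart at both ages, and the high 12w Wt value came from the library numbered 4. Cdh8 fell by 1.31 (SE 0.31) at 2w with an edgeR adjusted p of 0.0153, and by 1.32 (SE 0.31) at 12w with an adjusted p of 0.00699. The 12w call held without any 1 library, and of these the value without the one numbered 4 was the weakest (−0.77). The 2w call was lost without the 2w Wt library numbered 1 (−1.24) or 3 (−1.31) or the 2w Tg7 library numbered 3 (−1.10).

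Cdh7 (chr1:111878904-112036734) was alike in both genotypes at 2w, with 5.99, 7.07 and 6.07 CPM in Wt and 7.84, 5.33 and 7.75 in Tg7, and not called. At 12w it stood at 6.18, 2.94 and 4.87 CPM in Wt and at 2.42, 0.941 and 1.60 in Tg7, without overlap. The log2 fold change was −1.48 (SE 0.36) at 12w, with an edgeR adjusted p of 0.00962. Cdh9 (chr15:16707856-16786522) had few reads, with 0.771, 0.147 and 0.745 CPM in 2w Wt and 1.39, 3.70 and 2.58 in 2w Tg7. At 12w it stood at 2.77, 1.43 and 2.20 CPM in Wt and at 4.96, 6.42 and 4.23 in Tg7. All Tg7 libraries exceeded all Wt libraries at both ages. The rise of 2.14 (SE 0.52) at 2w had an edgeR adjusted p of 0.0175 and was lost without the Wt library numbered 2 (1.73) or the Tg7 library numbered 2 (1.78). At 12w the log2 fold change was 1.30 (SE 0.47) with an adjusted p of 0.0593, and it was called without the 2w Wt library numbered 2 (1.30) or the 2w Tg7 library numbered 1 (1.33) and in 6 of 7 alternatives.

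Of the atypical cadherins, Cdh13 (chr8:120807633-121848821), the T-cadherin gene whose protein is anchored by a lipid and binds adiponectin, rose at 12w. It stood at 1.64, 0.714 and 0.867 CPM in 12w Wt and at 2.54, 2.38 and 2.86 in 12w Tg7, all above Wt. The log2 fold change was 1.32 (SE 0.35) with an edgeR adjusted p of 0.0143. The call was lost without the 12w Tg7 library numbered 3 (1.25) and with edgeR on that age alone (1.29). At 2w Cdh13 stood at 3.797, 4.64 and 3.41 CPM in Wt and at 4.06, 5.13 and 5.27 in Tg7 and was not called. Cdh16 was at 101 CPM in 1 of the 2w Tg7 libraries and at 27.3 and 35.7 in the others, beside 16.2 to 29.7 in 2w Wt. Its log2 fold change of 1.35 (SE 0.45) had an edgeR adjusted p of 0.0699. Without the library at 101 CPM the value was 0.54, with an edgeR adjusted p of 0.437. Calls came under library size alone (1.52), in the unfiltered table (1.34), and without the 12w Wt library numbered 4 (1.35) or the 2w Tg7 library numbered 1 (1.68).

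Clustered protocadherins were represented by 20 tested Pcdhb genes and by a few rows of the α and γ clusters. In the α and γ clusters, a variable first exon is spliced to constant exons that all transcripts of the cluster share, and the annotation places whole-cluster transcripts under single symbols. Pcdha11 (chr18:37089939-37347311, 10 transcripts) spans the α cluster and contains Pcdha3, and Pcdhgc5 (chr18:37833989-38001527, 10 transcripts) spans the γ cluster. Their values therefore describe the clusters and not 1 isoform. Pcdha11 stood at 11.3, 10.9 and 11.3 CPM in 2w Wt and at 21.4, 19.4 and 21.7 in 2w Tg7, a rise of 0.90 (SE 0.21) with an edgeR adjusted p of 0.0170. The groups were far apart, but without any 1 of the 2w Wt libraries the call was lost (0.90, 0.87 and 0.90). At 12w Pcdha11 stood at 41.0, 24.8 and 53.9 CPM in Wt and at 51.3, 51.9 and 44.8 in Tg7, which overlapped, and was called only without the Wt library numbered 4 (0.60) among the libraries left out, and with library size alone (0.74).

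Pcdhgc5 stood at 134, 176 and 184 CPM in 12w Wt and at 254, 247 and 227 in 12w Tg7. All Tg7 libraries were higher, with a rise of 0.56 (SE 0.13) and an edgeR adjusted p of 0.00673 that held in every alternative and without any 1 library. At 2w it stood at 178, 181 and 176 CPM in Wt and at 205, 209 and 179 in Tg7 and was not called. The exons of both rows overlap a gene on the opposite strand (Gm10545 and Gm16882). No source used here states whether the counting used strand, so reads of those genes cannot be told apart from these rows. Shorter overlaps with exons of other genes touch Cdh8 (at most 23 bases), Cdh4 (31), Pcdh19 (57), Celsr3 (65), Pcdh15 (225, with a second gene identifier of the same symbol that had no read), Fat1 (276), Cdh24 (284) and Fat4 (674).

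The Pcdhb genes are closely similar neighbours, most of them with 1 annotated transcript, so reads they share may be split or lost in the counting, and their values are uncertain. At 12w 14 of the 20 tested had positive and 6 negative estimates, with a median log2 fold change of 0.48. At 2w the split was 13 to 7 and the median 0.08. In the edgeR fit of group means with TMM and all libraries, 5% of the 20 were called at 12w, beside 23.6% of all genes. This was Pcdhb9 alone, in Tg7 against Wt. It had no read in the 12w Wt libraries and 11, 11 and 2 in the 12w Tg7 libraries, at least 5.33-fold higher when 3 reads over the group are taken as the floor. The call rested on few reads and was lost without the 12w Tg7 library numbered 1 or 2, where the fitted log2 values were 5.56 and 5.57. At 12w Pcdhb14 was called with upper-quartile factors (1.13), library size alone (1.40) and without the Wt library numbered 4 (1.72). Pcdhb17 was called without that Wt library (1.25) and with library size alone (1.15). Pcdhb3 (2.47) and Pcdhb15 (1.87) were called with library size alone. Pcdhb21 was called lower without the 12w Wt library numbered 2 (−2.02).

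Among non-clustered protocadherins, Pcdh15 fell and Pcdh9 rose at 12w. Pcdh15 (chr10:72562090-74112482) encodes a component of the tip link of inner ear hair cells. It stood at 28.1, 14.2 and 25.001 CPM in 12w Wt and at 8.35, 8.24 and 9.84 in 12w Tg7. The Tg7 libraries lay below all Wt libraries and were close to each other. The log2 fold change was −1.34 (SE 0.25) with an edgeR adjusted p of 0.00166, and the call held in every alternative and without any 1 library. At 2w Pcdh15 stood at 16.1, 11.1 and 11.8 CPM in Wt and at 11.4, 13.5 and 9.04 in Tg7, which overlapped. Cdh23, whose protein pairs with that of Pcdh15 in the tip link, averaged 0.740 CPM or less in every group and was not called at either age.

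Pcdh9 (chr14:93414731-94287951), a protocadherin of the nervous system, had 1, 0 and 4 reads in the 12w Wt libraries and 19, 25 and 21 in the 12w Tg7 libraries. The groups did not overlap, and the rise of 3.08 (SE 0.88) had an edgeR adjusted p of 0.0212. It was lost without the 12w Wt library numbered 1 (3.02) or 2 (2.49), or the Tg7 library numbered 2 (2.98) or 3 (3.09). At 2w Pcdh9 stood at 0.237, 0.0737 and 0.532 CPM in Wt and at 2.24, 0.844 and 0.646 in Tg7, with a log2 fold change of 2.06 (SE 0.75) and an adjusted p of 0.0908. Pcdh7 and Cdh11 were high in the 2w Tg7 library numbered 1 alone, at 9.12 and 8.80 CPM, against at most 1.43 and 2.58 in the other 2w libraries.

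Cdh5, Cdh19 and Cdh11 are known to mark endothelial cells, Schwann cells and fibroblasts, so they were read beside the other markers of those cells. Cdh5 (chr8:106625525-106668402) did not separate at 2w, with 206, 145 and 155 CPM in Wt and 143, 177 and 137 in Tg7. At 12w it stood at 44.1, 52.9 and 66.0 CPM in Wt and at 87.2, 103 and 87.4 in Tg7, all higher. The rise of 0.76 (SE 0.17) had an edgeR adjusted p of 0.00627 and held in every alternative and without any 1 library. All 10 endothelial markers had positive estimates at 12w, with a median log2 fold change of 0.84. Of these, 8 were called higher, beside 12.5% of all genes. The summed level of the 10 at that age ranged from 386 to 497 CPM in Wt and from 788 to 833 in Tg7. Divided by that sum, Cdh5 stood at 0.114, 0.116 and 0.133 in 12w Wt and at 0.111, 0.123 and 0.110 in 12w Tg7, which overlapped. The log2 fold change of Cdh5 lay within the range of the 10 markers, 0.32 to 1.11. At 2w the endothelial sum ranged from 841 to 1052 CPM in Wt and from 955 to 1034 in Tg7. Divided by it, Cdh5 stood at 0.196, 0.173 and 0.184 in 2w Wt and at 0.149, 0.171 and 0.140 in 2w Tg7. The Tg7 values were all lower, though the highest was close to the lowest Wt value, and the difference was not tested. Pcdh12, another gene of endothelial cells, had a log2 fold change of 0.85 (SE 0.30) at 12w with an adjusted p of 0.0540, and was called by DESeq2 (0.84), under upper-quartile factors (0.95), under library size alone (1.27), under the stricter filter (0.87), and without the 2w Tg7 library numbered 2 (0.85) or 3 (0.87).

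**Figure D5:**
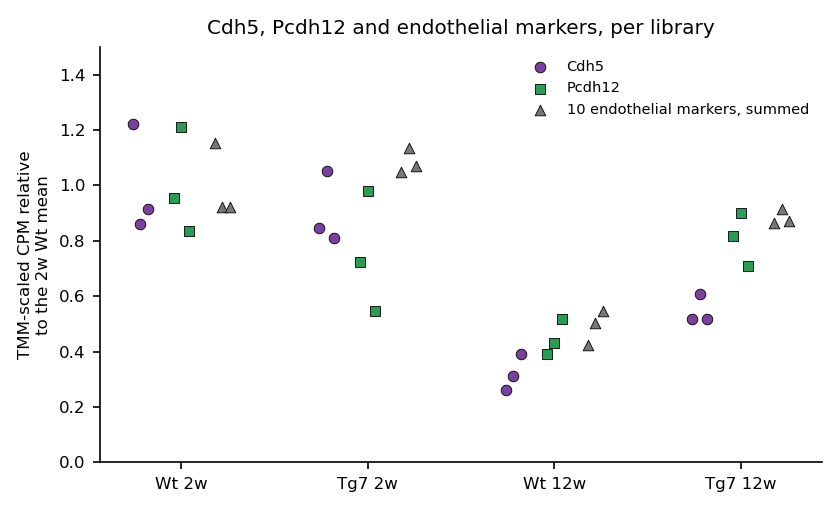
TMM-scaled CPM of Cdh5 (circles), Pcdh12 (squares) and the sum of 10 endothelial markers (triangles) in each library, relative to the mean of the 2w Wt libraries. All 3 are lower in 12w Wt than in 2w Wt, and in 12w Tg7 all 3 lie above 12w Wt.

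Cdh19 (chr1:112785772-112873949) had 0, 4 and 4 reads in the 12w Wt libraries and 16, 11 and 47 in the 12w Tg7 libraries. The groups did not overlap, but the highest Tg7 library held most of the reads. The rise of 2.65 (SE 0.88) had an edgeR adjusted p of 0.0418, and it was lost with edgeR on that age alone (2.61) without any 1 of the 2w Wt libraries (2.66 each) or 12w Wt libraries (2.21 to 3.04), and without the 12w Tg7 library numbered 1 (2.91) or 3 (1.77). Of 6 Schwann cell markers tested, 5 had positive estimates at 12w. Ngfr and Sox10 were called higher (33.3%, beside 12.5% of all genes). The summed level of the list at 12w ranged from 8.87 to 19.5 CPM in Wt and from 20.9 to 24.1 in Tg7. The part of Schwann cells in the rise of Cdh19 was not tested. Cdh11 (chr8:105156895-105309011) stood at 0, 0.397 and 1.20 CPM in 12w Wt and at 0.789, 0.332 and 1.09 in 12w Tg7 and was not called at either age. In the younger islets all Tg7 libraries exceeded all Wt libraries for Cdh11, with 8.80, 2.21 and 2.58 CPM against 1.84, 1.33 and 1.81. By edgeR this gave an uncalled positive estimate of 1.44 (SE 0.68, adjusted p 0.189), and the highest value came from the Tg7 library numbered 1. Fibroblast and stellate markers were called at both ages. Of 9, 6 were called higher at 2w and 8 at 12w, beside 6.07% and 12.5% of all genes. Estimates were positive for 8 at 2w and for 9 at 12w. The summed level of these markers was 87.5 to 149 CPM in 12w Wt against 385 to 407 in 12w Tg7.

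Whether the effect of the transgene on a member differed between ages was tested as the difference of the age-specific contrasts. By edgeR 0 of 54 members were called, against 1.18% of all genes. An unadjusted p below 0.05 was held by 14, where 2.7 are expected at 5%. The share of all genes below that unadjusted limit is not given here. DESeq2 called 2, Cdh5 and Cdh7 (3.85%, beside 3.57% of all genes). Cdh5 had the smallest unadjusted p by edgeR, 0.00223, with a difference of 0.91 (SE 0.24) and an adjusted p of 0.0948. Cdh7 had a difference of −1.61 (SE 0.49) and Pcdh15 of −1.14 (SE 0.35), with adjusted p values of 0.145 and 0.1498. Celsr1, for which the fall was larger at 12w, had a difference of −1.35 (SE 0.55) and an adjusted p of 0.276, and Fat3 of 0.70 (SE 0.60) with an adjusted p of 0.657. Without the 12w Wt library numbered 4, edgeR called Cdh5 (1.08) and Cdh2 (0.59), and without the one numbered 2 it called Pcdh15 (−1.38).

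The comparison of 12w with 2w Wt islets gave the change of the family with age in the absence of the transgene. It shares its Wt libraries with the comparisons above. Here 14 of 54 members were called (25.9%), against 15.8% of all genes, with 5 higher (7.9% of all genes) and 9 lower (7.91%) at 12w. Of the 54, 41 had a negative estimate, and the median was −0.50, beside 0.04 over all genes. Scaling by library size alone moved the median of all genes by −0.39. It called 3 higher and 16 lower (35.2%, beside 25.8% of all genes). The called count was 8 without the 2w Wt library numbered 2 (14.5%, beside 8.11% of all genes). It was 9 without the one numbered 3 (16.4%, beside 8.21%).

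The called members that fell most with age were Pcdhb9, Pcdh18, Cdh13, Cdh24 and Cdh5. Pcdhb9 had 9, 7 and 14 reads in the 2w Wt libraries and none in the 12w Wt libraries, at least 7.22-fold lower with 3 reads over the group as the floor, and the call was lost without the 2w Wt library numbered 3. Pcdh18, of the δ protocadherins, fell by 2.81 (SE 0.52) with an edgeR adjusted p of 0.00265, from 4.15, 4.198 and 2.98 CPM at 2w to 0.126, 0.476 and 0.867 at 12w. Cdh13 fell by 1.93 (SE 0.35) with an edgeR adjusted p of 0.00220, and Cdh24, a type II cadherin, by 1.65 (SE 0.39) with an adjusted p of 0.0107. Cdh5 fell by 1.63 (SE 0.18) with an edgeR adjusted p of 5.18e-05. The ages did not overlap for any of these genes. Cdh6, Pcdhb10 and Cdh19 had estimates of −3.45, −2.77 and −2.10 and were not called. The 10 endothelial markers were all called lower as well, with a median of −1.13. All 9 fibroblast and stellate markers had negative estimates, with a median of −2.02, and 6 of them were called. Over all genes 7.91% were called lower. Relative to the endothelial sum, Cdh5 was lower at 12w in every library, at 0.114 to 0.133 against 0.173 to 0.196 at 2w. The share of these cells in the other falls was not tested. The other members that fell were Pcdhb17, Fat4, Pcdh12 and Celsr3, by between 0.50 and 1.32.

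The members that rose with age in Wt islets were Cdh9, Pcdha11, Fat3, Cdh4 and Pcdh15. Pcdha11 rose by 1.83 (SE 0.22) with an edgeR adjusted p of 9.67e-05, from 11.2 ± 0.249 CPM at 2w to 39.9 ± 14.6 at 12w (SD, n = 3). Cdh4 rose by 1.09 (SE 0.20) with an adjusted p of 0.00285, from 5.36 ± 0.228 to 11.3 ± 2.82 CPM (SD, n = 3). Both calls held in every alternative and without any 1 library. Cdh9 rose by 1.87 (SE 0.53), Fat3 by 1.47 (SE 0.46) and Pcdh15 by 0.78 (SE 0.25), with edgeR adjusted p values of 0.0279, 0.0433 and 0.0459. These 3 calls were lost in some alternatives and when some single libraries were left out. The replicate block lost all 3 (1.83, 1.22 and 0.62). Library size alone also lost Fat3 (1.08) and Pcdh15 (0.38). Fat3 was lost without a filter (1.46) and Pcdh15 with upper-quartile factors (0.74). The call of Cdh9 was lost without the 2w Wt library numbered 2 (1.46) or 3 (2.13) or the 12w Wt library numbered 1 (1.67). The call of Fat3 was lost without any but the 2w Tg7 or 12w Wt library numbered 2 (1.12 to 1.68 where lost), and that of Pcdh15 without any but the 2w Wt library numbered 1, the 2w Tg7 library numbered 3 or the 12w Wt library numbered 2 (0.61 to 0.78 where lost).

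The proteins that hold classical cadherins at the junction, and those that act with Celsr and Fat proteins, were taken as lists around the members. Of 17 catenin and adherens junction genes tested, 3 rose at 2w (17.6%, beside 10.6% of all genes called), and 3 rose and 3 fell at 12w (35.3%, beside 23.6%), with median log2 fold changes of 0.0028 and −0.0047. Ctnna2, the α-catenin of neurons, rose by 1.39 (SE 0.25) at 2w and 1.69 (SE 0.24) at 12w. Plekha7, which ties adherens junctions to microtubules, rose by 0.87 (SE 0.19) and 1.75 (SE 0.19). The third gene that rose was Ctnnd2 at 2w and Arvcf at 12w, both of the p120 family of catenins. At 12w Ctnnal1, Vcl (vinculin) and Pvrl1 (nectin 1) fell. The main catenins that bind Cdh1 and Cdh2, Ctnnb1, Ctnna1 and Ctnnd1, had log2 fold changes between −0.25 and 0.03 over both ages and were not called. Of 14 planar polarity and Fat-pathway genes tested, Dvl3 fell at 2w (7.14%, beside 4.55% of all genes that fell). At 12w Ankrd6, Prickle2, Prickle3 and Vangl1 rose by between 0.81 and 1.29 (28.6%, beside 12.5% of all genes that rose). In either direction 10.6% of all genes were called at 2w and 23.6% at 12w. Of 9 other cadherin superfamily genes tested, Cdhr2 and Cdhr5 rose at 2w (22.2%, beside 6.07% of all genes that rose). At 12w Cdhr2 and the calsyntenins Clstn1, Clstn2 and Clstn3 rose (44.4%, beside 12.5%), and none of the list was called lower at either age. These lists are short, and their shares are descriptions without a test.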

How the data were processed

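Islet RNA of 12 libraries (Wt and Tg7 at 2w and 12w, 3 per group, with numbers 1, 2 and 4 in 12w Wt) was analysed from the deposited raw read counts per Ensembl gene. By the study's methods and the labels, the authors trimmed paired-end reads with Trimmomatic, aligned them to mm9 with TopHat2 2.0.11 and counted them with featureCounts, without normalization; whether strand was used is not stated in those sources. Depth was 11610697 to 17515758 reads per library.

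Here, genes passing filterByExpr (minimum count 10, minimum total 15) were fitted as group means of all 12 libraries in edgeR 4.0.16 (TMM, glmQLFit, glmQLFTest; R 4.3.3) with Benjamini-Hochberg adjustment over 15961 genes. The study used DESeq2; DESeq2 1.42.0 was an alternative here, as were library size alone, scaling by upper quartiles, the table without a filter, a filter of 50 reads in 3 libraries, a replicate block, each age alone and each library left out. A group reduced to 2 libraries borrows its spread from the remaining groups. Standard errors are the log2 fold change over the square root of F. Levels per kb divide by the union of annotated exons (GENCODE M1, mm9). Floors of 3 reads cover counting error only. The fit was tested on simulated counts. Same-numbered libraries did not deviate together (correlations of −0.0214, −0.167 and −0.0343 at 2w, −0.0894 and −0.0112 at 12w), and no source used here says that a number marks a shared origin, so numbers were not used as pairs.

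Members and lists were chosen with earlier results of these data known. Named were all members called for Tg7 against Wt or for its difference between ages, Cdh1, Cdh2, Celsr1, Cdh5, Cdh11 and Cdh19, the 5 largest called rises and falls with age, and the 5 highest per kb; Cdh23, Pcdh7, Pcdh12 and the other members were named after their values were seen. Macrophage (1 of 6 tested called higher at 2w, 1 lower at 12w), ductal (1 of 4 higher at 12w), mesothelial (Msln alone tested, lower at both ages), acinar (median log2 fold change 1.52 at 2w and −0.18 at 12w), alpha (0.40 and 0.25) and delta (0.0099 and −0.079) markers were also read. Comparison of protein sequences was not run. Figures used Python 3.11.15 and matplotlib 3.10.9.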

Additional observations from a re-analysis of the deposited data

How the results depend on the processing

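At 12w 25 members were called with library size alone and 18 with upper-quartile factors, against 11, while the calls over all genes went from 3772 to 5558 and 3735. For the difference between ages DESeq2 and the replicate block called 2 each (3.85% and 3.7%, beside 3.57% and 3.15% of all genes). Library size alone and no filter called 1 each (1.85% and 1.82%, beside 2.17% and 1.75%), against the 0 given above. The cause was not tested. With each library left out, the called counts ranged from 2 to 8 at 2w (3.64% to 14.5%, beside 4.59% to 18.7% of all genes). They ranged from 8 to 16 at 12w (14.5% to 29.1%, beside 14.7% to 24.5%). For the difference the range was 0 to 2 (at most 3.64%, beside 0.5% to 3.52%). For age in Wt islets it was 8 to 17 (14.5% to 30.9%, beside 8.11% to 24.4%). At 2w the count was 2 without any 1 of the 2w Wt libraries, 3 without the 2w Tg7 library numbered 2 or 3, and 8 without the 12w Wt library numbered 4. The replicate block, in which numbers shared between groups were treated as pairs, gave 7 members at 2w, 15 at 12w and 15 for age (with 2630, 3572 and 3817 of all genes); no source used here says whether a shared number marks a shared origin. Under the block Cdh1 and Cdh2 were gained at 2w, and at 12w Cdh2 (0.95), Cdh4, Fat1, Pcdh12, Pcdha11, Pcdhb14 and Pcdhb17 were gained and Cdh13, Cdh19 and Pcdhb9 lost. No member called with TMM changed sign in any alternative. With library size alone the sign of 7 uncalled members turned at 2w, 5 at 12w, 4 for the difference and 4 for age, and Cdh2 turned and was called for age (−0.29) without the 12w Wt library numbered 4. Among the members named in the report for Tg7 against Wt by rule, signs turned for Cdh1 at 12w (0.00056) and Cdh5 at 2w (0.023) with library size alone, Pcdhb9 at 2w with the block (−0.00075), and, with 1 library left out, Pcdhb9 at 2w (−0.25 to 0.44), Cdh5 at 2w (−0.27 to 0.018) and Cdh11 at 12w (−0.17 to 1.63). With 3 libraries a group and few reads, members below 1 CPM could change without being called.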
